A study of Homo sapiens with 6 samples.

Results

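The apolipoprotein genes described here are APOA1, APOA2, APOA4, APOB, APOC1, APOC3, APOE, APOH and APOM, together with MTTP, whose product loads lipid onto apolipoprotein B. They were taken as the entries of the expression table whose gene symbol equals a listed name, and all 10 were found among 26184 genes and loci. Apolipoproteins coat the particles that carry lipids in plasma, where they give the particle its shape, bind receptors and switch lipases on or off. The liver makes most of them and the small intestine makes several, so they are known as products of the differentiated hepatocyte and are commonly retained in hepatocellular carcinoma lines. Apolipoproteins A-I, A-II and M belong mainly to high-density lipoprotein, and apolipoprotein B is the backbone of very-low-density and low-density lipoprotein. Apolipoproteins C-I, C-III and E move between both classes of particle.

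The sequenced RNA came from 3 samples of Huh7 P, a line of human hepatocellular carcinoma cells, and 3 samples of Huh7 LR, the lenvatinib-resistant line made from it. Both lines are labelled wild type, and Huh7 P carries the labels of no treatment and time 0. Huh7 LR had been exposed for 10 months to lenvatinib, an inhibitor of several receptor tyrosine kinases, at concentrations between 1 and 20 μM. The resistant line was kept in the drug and was not stated to be a clone, and the sources do not say whether the drug was present at harvest, so that resistance and exposure cannot be told apart. The samples are called independent without mention of separate cultures, and p-values therefore measure only the spread between these samples, which may be technical. In bulk RNA, fewer cells with a transcript and less of it per cell cannot be told apart. The gene counts of a library totalled 71427573, 62738937 and 66961548 in Huh7 P replicates 1, 2 and 3, and 63233655, 70768720 and 67284160 in Huh7 LR replicates 1, 2 and 3. Where a library holds 0 counts of a gene, its true count may be as high as 3, or 0.0420 to 0.0478 CPM by plain library totals, a limit that covers counting error only; CPM printed elsewhere are counts relative to library totals scaled by TMM.

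The hepatoma label was checked against markers. The 9 markers of hepatocytes and hepatoma summed to 40239, 45986 and 50348 CPM in the Huh7 P libraries and to 53099, 53917 and 55452 CPM in the Huh7 LR libraries. AFP, alpha-fetoprotein, was their most abundant gene by FPKM in Huh7 P and ALB, albumin, in Huh7 LR, and 5 of the 9 rose in the resistant line, against 23.3% of all genes and loci. None of the 9 fell by the test given below. AFP, KRT8 and KRT18 had log2 fold changes of -0.23, -0.17 and -0.16 that did not pass it. KRT8 and KRT18 were chosen for mention after their values were seen. Levels are given as the authors' FPKM (reads scaled for transcript length and library size), which can be compared between genes. Fold changes and tests rest on the counts. A call needs more than 2-fold and an adjusted p under 0.001, where the cutoffs are those of the study and the adjustment was chosen here. A single gene differs where its adjusted p is under 0.05.

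Most of the 10 transcripts were more abundant in the resistant line, while APOB, APOM and MTTP did not pass the test. APOA2, APOC3, APOE and APOH were called higher, which is 4 of 10 genes, against 4.43% of the 17531 genes and loci tested. With edgeR's quasi-likelihood test 0 of the 10 were called lower, against 1.78% of all, and DESeq2 and limma also called 0 lower. At an unadjusted p under 0.05, 2 of the 10 were lower. Without the fold threshold 6 of 10 were higher and 1 was lower, whereas 23.3% of everything tested were higher and 22.4% lower. All Huh7 LR libraries lay above all Huh7 P libraries for 6 of the 10 by CPM, against 28.2% of all genes and loci, and below them for 2, against 27.7%. The median log2 fold change was 0.55 for the 10 genes and 0 over everything tested. The genes that differed were spread widely, from APOC3 at 1.93 to APOA4 at -0.63.

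**Figure D1:**
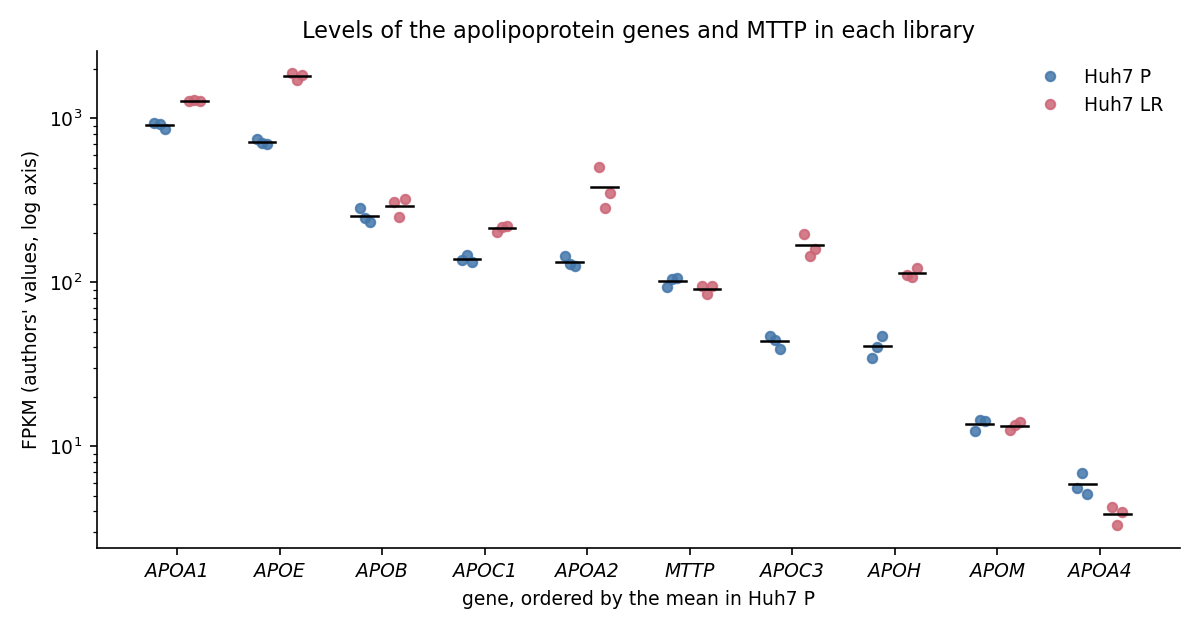
FPKM of each gene on a log axis, with the genes on the horizontal axis in the order of their mean in Huh7 P, and a point for each of the 3 Huh7 P (blue) and 3 Huh7 LR (red) libraries; black lines are means. The libraries of the lines are apart for APOA1, APOE, APOC1, APOA2, APOC3, APOH and APOA4, and they overlap for APOB, MTTP and APOM.

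Among the proteins of high-density lipoprotein, APOA1 (ENSG00000118137, chr11:116835751-116837950 in GENCODE release 29, GRCh38), which encodes the main structural protein of these particles and the activator of the cholesterol-esterifying enzyme LCAT, was abundant in both lines. Its level was 934, 922 and 858 FPKM in Huh7 P replicates 1, 2 and 3, and 1271, 1291 and 1276 FPKM in Huh7 LR replicates 1, 2 and 3. The Huh7 LR libraries lay close together and above every Huh7 P library. The difference was moderate, 0.48 on the log2 scale (standard error 0.07, edgeR quasi-likelihood test, Benjamini-Hochberg adjusted p = 0.00016), and APOA1 was not called because it did not reach 2-fold.

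APOA2 (ENSG00000158874, chr1:161222292-161223631), which encodes the second most common protein of high-density lipoprotein, changed more. It stood at 144, 129 and 125 FPKM in the Huh7 P libraries and at 501, 285 and 352 FPKM in the Huh7 LR libraries. The groups did not overlap, but the Huh7 LR libraries were far apart, and replicate 1 was the highest. The coefficient of variation of CPM was 28.3% within Huh7 LR and 6.38% within Huh7 P, the largest within Huh7 LR among the 10 genes. The log2 fold change of APOA2 was 1.49 (standard error 0.16, edgeR quasi-likelihood test, Benjamini-Hochberg adjusted p = 3.13e-05). Without Huh7 LR replicate 1 the log2 fold change was 1.24, and the gene was still called. The call was lost with limma on log2(FPKM + 0.1) without a filter, where the log2 fold change was 1.48.

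APOM (ENSG00000204444, chr6:31652416-31658210), the carrier of sphingosine-1-phosphate in high-density lipoprotein, was low and did not separate the lines. Its levels were 12.4, 14.4 and 14.3 FPKM in Huh7 P and 12.5, 13.5 and 14.0 FPKM in Huh7 LR. The log2 fold change was -0.07 (standard error 0.10, edgeR quasi-likelihood test, Benjamini-Hochberg adjusted p = 0.611). Exons of APOM share 136 bases with those of BAG6 on the opposite strand, and the sources do not state that the libraries kept the strand, so reads in that stretch are uncertain. APOA4 (ENSG00000110244, chr11:116820700-116823306), which encodes an intestinal protein of chylomicrons and high-density lipoprotein, was the least abundant of the 10. It stood at 5.53, 6.85 and 5.13 FPKM in Huh7 P and fell to 4.28, 3.29 and 3.98 FPKM in Huh7 LR, with every Huh7 LR library below every Huh7 P library. Its exons share 635 of 1473 bases with those of an antisense gene, AP006216.3, so its counts are uncertain to that extent. APOA4 was the 1 gene of the list that was lower, by -0.63 on the log2 scale (standard error 0.14, edgeR quasi-likelihood test, Benjamini-Hochberg adjusted p = 0.00451).

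Of the exchangeable apolipoproteins, APOC3 (ENSG00000110245, chr11:116829706-116833072), whose product slows the breakdown and uptake of triglyceride-rich particles, had 47.0, 44.7 and 39.0 FPKM in the Huh7 P libraries and 198, 145 and 160 FPKM in the Huh7 LR libraries. The lowest Huh7 LR library was thus well above the highest Huh7 P library, and replicate 1 of Huh7 LR was again the highest. Mean CPM was 3.82-fold higher, the largest change of the 10 genes, which is a log2 difference of 1.93 (standard error 0.11, edgeR quasi-likelihood test, Benjamini-Hochberg adjusted p = 5.68e-07). By its signed log2 fold change APOC3 ranked 482 from the top among the 17531 genes and loci tested.

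APOE (ENSG00000130203, chr19:44905754-44909393), the ligand through which remnant particles reach hepatic receptors, had 750, 711 and 700 FPKM in Huh7 P and 1879, 1720 and 1846 FPKM in Huh7 LR. Its libraries varied little within a line, and the lines were far apart. The log2 fold change of 1.31 (standard error 0.07) was smaller than that of APOC3, but APOE gained the most FPKM of the 10 genes and ranked 59 among 19974 annotated genes by mean FPKM in Huh7 P and 18 in Huh7 LR. APOC1 (ENSG00000130208, chr19:44914247-44919349), whose product inhibits lipoprotein lipase and the cholesteryl ester transfer protein, had 136, 146 and 134 FPKM in Huh7 P and 203, 218 and 222 FPKM in Huh7 LR. The lines did not overlap. Exons of APOC1 share 532 of 1231 bases with AC011481.3, a transcript of unknown coding status on the same strand, and its counts are uncertain there. APOC1 rose by less than 2-fold (log2 fold change 0.62, standard error 0.07, edgeR quasi-likelihood test, Benjamini-Hochberg adjusted p = 4.43e-05).

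**Figure D2:**
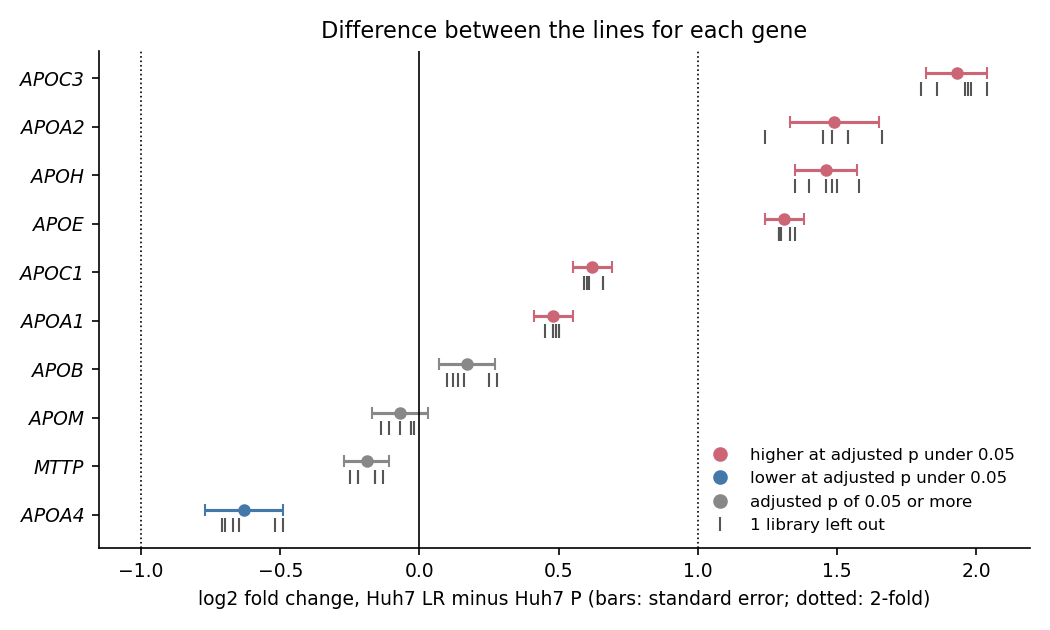
Log2 fold change of each gene, Huh7 LR minus Huh7 P, with standard errors as bars and the values with each library left out in turn as ticks; dotted lines mark 2-fold. APOC3, APOA2, APOH and APOE lie beyond 2-fold with every library left out, and APOA4 alone among the genes that differed lies below 0.

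APOB (ENSG00000084674, chr2:21001429-21044073) encodes the protein that stays with its particle from assembly to uptake. Its level was 283, 248 and 233 FPKM in Huh7 P and 310, 249 and 320 FPKM in Huh7 LR. The ranges overlapped, since Huh7 LR replicate 2 lay among the Huh7 P libraries. The log2 fold change was 0.17 (standard error 0.10, edgeR quasi-likelihood test, Benjamini-Hochberg adjusted p = 0.186). Without Huh7 LR replicate 2 it was 0.28 and passed the test, where the edgeR quasi-likelihood test gave a Benjamini-Hochberg adjusted p = 0.0183; over all alternatives its adjusted p lay between 0.0183 and 0.517. MTTP (ENSG00000138823, chr4:99563761-99623999) encodes the large subunit of the microsomal triglyceride transfer protein. It had 94.0, 105 and 106 FPKM in Huh7 P and 94.5, 84.6 and 94.8 FPKM in Huh7 LR, where replicates 1 and 3 lay just above the lowest Huh7 P library. By CPM, every Huh7 LR library was below every Huh7 P library, and the log2 fold change of -0.19 missed the threshold (standard error 0.08, edgeR quasi-likelihood test, Benjamini-Hochberg adjusted p = 0.0614). It passed with DESeq2 (adjusted p = 0.039) and without Huh7 P replicate 1 (edgeR quasi-likelihood test, Benjamini-Hochberg adjusted p = 0.0341), and its adjusted p over all alternatives lay between 0.0341 and 0.227. Exons of MTTP share 19 bases with those of TRMT10A and 83 with those of AC083902.1, exons of APOB share 169 with AC010872.1 and exons of APOA1 share 123 with APOA1-AS, all on the opposite strand.

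In the small intestine APOB mRNA is edited by C-to-U deamination, which turns a glutamine codon into a stop and gives the short form of the protein. The stretch around that codon is shown because the editing genes were measured in these lines. It lies on the minus strand at chr2:21010309-21010338 (GRCh38), in exon 26 of 29 of the GENCODE release 29 transcript APOB-201. The capitals mark the edited codon, codon 2180 of 4563, and the bases after it hold the stretch where the editing complex docks.

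APOB editing site: atatgataCAAtttgatcagtatattaaag

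The catalytic enzyme of this editing, APOBEC1, had a count of 0 in all 6 libraries. Of its 3 RNA-binding partners that were listed and tested, 2 were lower in Huh7 LR and 0 were higher at an adjusted p under 0.05 with edgeR's quasi-likelihood test, against 22.4% and 23.3% of all genes and loci, and 0 were higher at an unadjusted p under 0.05. SYNCRIP, the most abundant, had 81.8, 75.4 and 75.0 FPKM in Huh7 P and 46.5, 49.9 and 51.9 FPKM in Huh7 LR, without overlap. The level of A1CF, chosen for mention after its values were seen, was 23.5, 21.8 and 22.4 FPKM in Huh7 P and 17.5, 16.9 and 20.6 FPKM in Huh7 LR, again without overlap. Counts per gene hold no bases, and editing itself was not measured.

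APOH (ENSG00000091583, chr17:66212033-66256525) encodes beta-2-glycoprotein I, a plasma protein that binds phospholipids. It had 34.5, 40.3 and 47.1 FPKM in Huh7 P and 111, 108 and 123 FPKM in Huh7 LR. The groups were far apart, although the Huh7 P libraries varied more for APOH than for the other genes, with a coefficient of variation of CPM of 16.4%. The log2 fold change was 1.46 (standard error 0.11, edgeR quasi-likelihood test, Benjamini-Hochberg adjusted p = 2.9e-06), close to that of APOA2, although the genes lie on different chromosomes.

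RefSeq promoters (GRCh38.p14) were found for 7 of the 10 genes, in 10 windows, and not for APOA1, APOC3 and APOB. In the 250 bases before each start, both strands were searched for TATAAA (the TATA box), AGGTCA (a nuclear receptor element) and CAAAGTCCA (an HNF4 element). A further motif was searched, and its matches are not given here. Of the windows of MTTP, the one at chr4:99563880-99564129 held 0 matches to these motifs. Another is shown because it held matches to TATAAA and AGGTCA. It lies on the plus strand at chr4:99574574-99574823, and capitals mark the matches, which are TTTATA and TGACCT, the reverse complements of the motifs TATAAA and AGGTCA.

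MTTP: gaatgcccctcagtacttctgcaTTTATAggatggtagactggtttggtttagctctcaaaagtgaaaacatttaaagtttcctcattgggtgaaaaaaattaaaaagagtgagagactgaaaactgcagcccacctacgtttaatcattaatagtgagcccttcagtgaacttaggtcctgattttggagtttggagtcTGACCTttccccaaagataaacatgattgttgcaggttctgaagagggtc

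The match to TATAAA begins 227 bases and that to AGGTCA 50 bases before the start that follows the window shown. Of all 35116 promoter windows of the same length, 10.7% held TATAAA and 12.1% held AGGTCA, so that neither match is rare. CAAAGTCCA, present in 0.325% of all windows, was in 0 of the 10. A match is a description of the letters, and binding was not measured.

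The 10 genes took a larger share of the RNA in the resistant line. Their share of gene counts was 0.714%, 0.653% and 0.620% in Huh7 P replicates 1, 2 and 3 and 0.992%, 0.843% and 0.992% in the Huh7 LR replicates, or 0.663% ± 0.0477 (SD, n = 3) and 0.942% ± 0.0859 (SD, n = 3). The lines did not overlap in this share. Summed per length, the 10 genes went from 2357 ± 89.9 FPKM (SD, n = 3) to 4371 ± 235.7 FPKM (SD, n = 3), while the sum over the table was 412820 ± 5930 FPKM (SD, n = 3) and 406572 ± 12370 FPKM (SD, n = 3). The share of counts differed less between the lines than the share of FPKM, since APOB, whose transcript is long and whose level did not pass the test, holds many of the counts.

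The order of the levels changed at several places. In Huh7 P it ran from APOA1 at 905 ± 40.7 FPKM (SD, n = 3) through APOE at 721 ± 26.2 FPKM, APOB at 255 ± 25.6 FPKM, APOC1 at 139 ± 6.61 FPKM, APOA2 at 133 ± 9.80 FPKM and MTTP at 102 ± 6.58 FPKM. APOC3 at 43.6 ± 4.14 FPKM, APOH at 40.6 ± 6.29 FPKM, APOM at 13.7 ± 1.13 FPKM and APOA4 at 5.84 ± 0.895 FPKM followed. The ranges of APOC1 and APOA2, and those of APOC3 and APOH, overlapped, and the other neighbours were separate. In Huh7 LR the order began with APOE at 1815 ± 83.5 FPKM (SD, n = 3), ahead of APOA1 at 1280 ± 10.4 FPKM (SD, n = 3), with no overlap between them. APOA2 at 379 ± 111 FPKM and APOB at 293 ± 38.1 FPKM overlapped, and APOC1 at 214 ± 9.74 FPKM, APOC3 at 168 ± 27.5 FPKM and APOH at 114 ± 7.56 FPKM came next, each separate from its neighbours. MTTP at 91.3 ± 5.80 FPKM, APOM at 13.3 ± 0.733 FPKM and APOA4 at 3.85 ± 0.508 FPKM closed the list. APOE thus made up 30.6% of the summed FPKM of the 10 genes in Huh7 P and 41.5% in Huh7 LR, and APOA1 38.4% and 29.3%.

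Because both values of a ratio come from the same library, 6 ratios between genes were compared. With 3 samples against 3 the two-sided exact permutation test cannot give a p under 0.1. The ratio of APOC3 to APOA1, neighbours on chromosome 11, was 0.0504, 0.0485 and 0.0454 in Huh7 P replicates 1, 2 and 3 and 0.156, 0.112 and 0.126 in the Huh7 LR replicates. That of APOA2 to APOA1, partners in high-density lipoprotein, was 0.154, 0.140 and 0.146 in parental and 0.394, 0.221 and 0.276 in resistant cells. Both ratios were higher in every Huh7 LR library, with differences of the mean log2 ratio of 1.44 and 0.98. The ratio of APOA4 to APOA1 moved the other way, from 0.00644 ± 0.000850 (SD, n = 3) to 0.00301 ± 0.000420 (SD, n = 3), a difference of -1.10 on the log2 scale. The ratio of APOC1 to APOE, neighbours on chromosome 19, went from 0.193 ± 0.0120 (SD, n = 3) to 0.118 ± 0.00934 (SD, n = 3), a difference of -0.71. APOA1 to APOB went from 3.56 ± 0.232 (SD, n = 3) to 4.42 ± 0.654 (SD, n = 3), a log2 difference of 0.30. In these 5 ratios the lines did not overlap, and each had the smallest p that the exact test can give, p = 0.1, or 0.12 after Benjamini-Hochberg adjustment over 6 ratios. The ratio of APOB to MTTP overlapped, at 2.53 ± 0.428 (SD, n = 3) and 3.20 ± 0.224 (SD, n = 3), with p = 0.2 by the exact permutation test and 0.2 after the adjustment. The exact test cannot reach 0.05 here, so these unequal changes are a description of the 6 libraries.

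**Figure D3:**
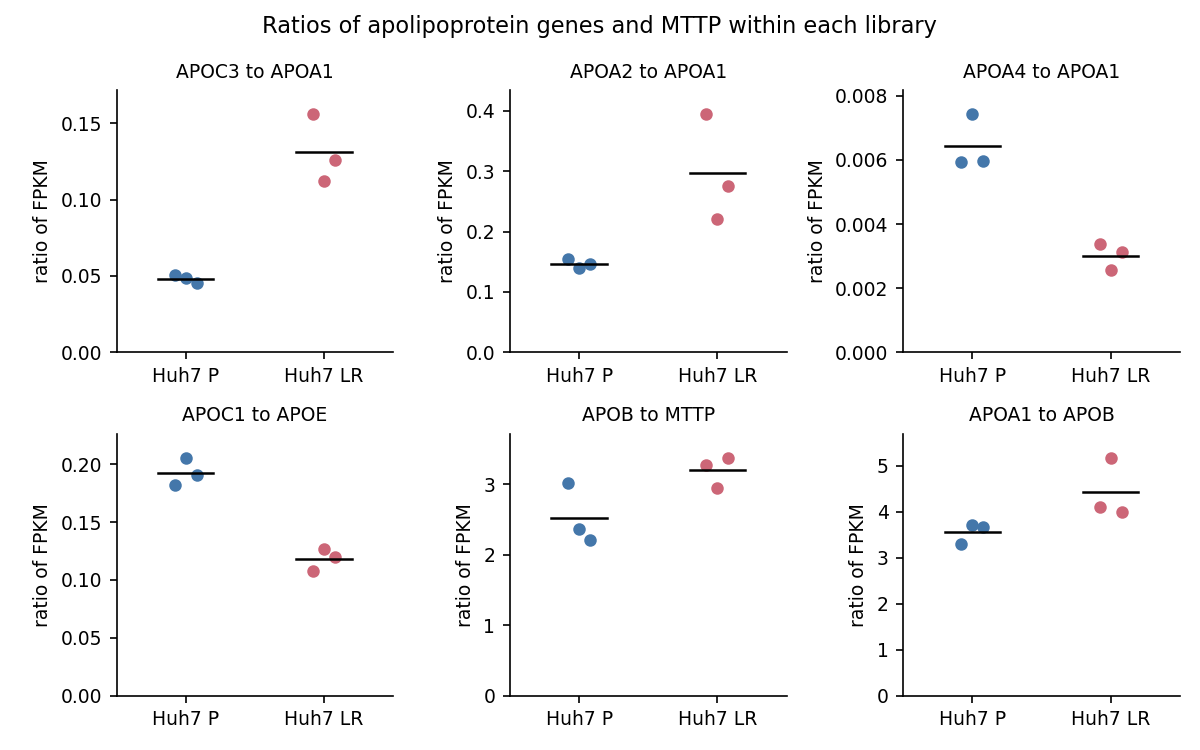
Ratio of the FPKM of 2 genes within each library, in 6 panels whose vertical axes start at 0, with a point for each of the 3 Huh7 P (blue) and 3 Huh7 LR (red) libraries and a line at the mean. The lines overlap for APOB to MTTP and are apart in the other 5 panels.

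The members of the chromosome 11 cluster differed in direction over a short distance. APOA4 and APOC3 are 6399 bases apart and APOC3 and APOA1 2678 bases apart, and their log2 fold changes were -0.63, 1.93 and 0.48. Their next neighbour, APOA5 (chr11:116789367-116792420), a gene for an activator of triglyceride hydrolysis, had 0.772, 1.08 and 1.26 FPKM in Huh7 P and 3.98, 3.06 and 3.83 FPKM in Huh7 LR. Called higher by 1.66 on the log2 scale (standard error 0.20), APOA5 was the 1 of 4 other genes tested within 250 kb that was called, against 4.43% called higher over all genes and loci. At an adjusted p under 0.05, 1 of the 4 was higher and 1 lower, against 23.3% and 22.4% of all. The call of APOA5 was lost with limma without a filter, at 1.73 on the log2 scale. The median log2 fold change of the 4 genes was -0.15. On chromosome 19, APOE and APOC1 are 4853 bases apart and rose by unequal amounts. Of the 18 other genes tested within 250 kb of either, 9 rose and 3 fell (adjusted p under 0.05), against 23.3% and 22.4% of all genes and loci, and their median log2 fold change was 0.40. Only NKPD1 was called among them, at 0.251 ± 0.0716 FPKM (SD, n = 3) in Huh7 P and 0.782 ± 0.225 FPKM (SD, n = 3) in Huh7 LR. Its call was lost with limma. It was also lost without Huh7 P replicate 2 or 3 or Huh7 LR replicate 3, where its log2 fold change was 1.69, 1.88 and 1.71. TOMM40, the gene next to APOE and outside the rule for named genes, was chosen for mention after its values were seen. Its level was 95.6 ± 4.06 FPKM (SD, n = 3) in Huh7 P and 69.0 ± 7.77 FPKM (SD, n = 3) in Huh7 LR, and it fell by a log2 fold change of -0.45.

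Neighbours of the members outside the clusters were read in the same way. Of 33 genes tested around APOM, MICB, a ligand of a natural killer cell receptor, was called lower, with 6.85 ± 0.181 FPKM (SD, n = 3) in Huh7 P and 2.60 ± 0.357 FPKM (SD, n = 3) in Huh7 LR. Over all 76 neighbours tested, 2 were called higher and 1 lower, 16 rose and 17 fell without the fold threshold, and the median log2 fold change was -0.05. The 16 include ADH1C near MTTP, chosen for mention after its values were seen. Its counts by library were 4, 7, 10 (Huh7 P) against 14, 99, 41 (Huh7 LR). ADH1C passed the minimum-count filter only through Huh7 LR, so its rise was close to fixed by the filter. Of all genes and loci, 4.43% were called higher and 1.78% lower, and 23.3% rose and 22.4% fell without the fold threshold, so all neighbours together lay near these shares, which the chromosome 19 cluster did not for genes that rose.

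**Figure D4:**
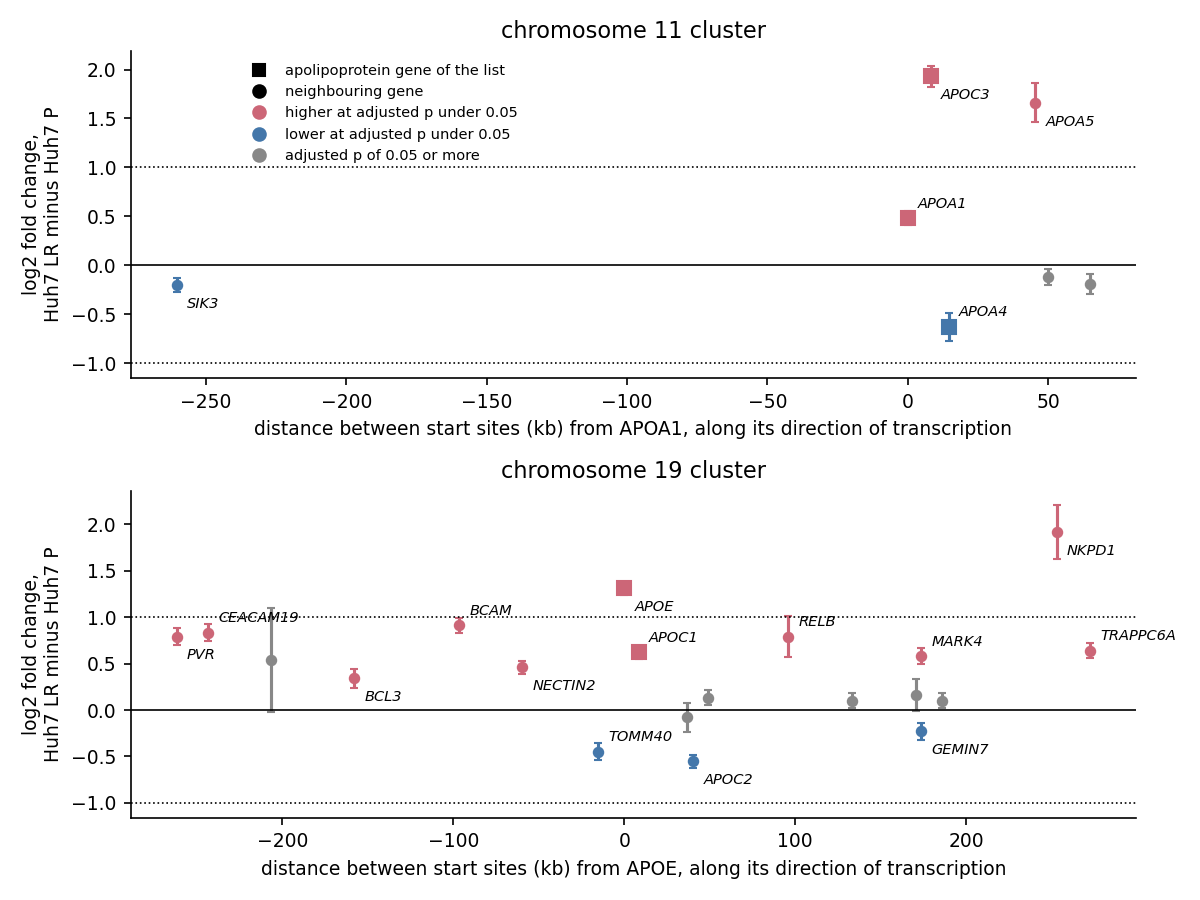
Log2 fold change of the genes tested in the chromosome 11 and chromosome 19 clusters against the distance between start sites in kb from APOA1 or APOE; squares are genes of the list, circles their neighbours, bars standard errors, and dotted lines 2-fold. APOC3 at 1.93 and APOA5 at 1.66 stand above APOA1 at 0.48 and APOA4 at -0.63, and APOE at 1.31 stands above APOC1 at 0.62.

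Other apolipoprotein genes showed a like mixture. Of 15 listed, 9 were tested, 6 rose and 1 fell (adjusted p under 0.05), against 23.3% and 22.4% of all, with a median log2 fold change of 0.74. The 6 include APOL1, chosen for mention after its values were seen. Its counts by library were 0, 0, 8 (Huh7 P) against 13, 32, 12 (Huh7 LR). APOL1 passed the minimum-count filter only through Huh7 LR. Its rise was thus close to fixed by the filter, although it enters the 6 and the median. SAA4, an apolipoprotein of the serum amyloid A family, had 0.352, 0.247 and 0.258 FPKM in Huh7 P and 3.08, 9.10 and 5.08 FPKM in Huh7 LR. Its Huh7 LR libraries were far from each other and all above Huh7 P, and it was called higher, as was APOA5. APOC2, which encodes the cofactor of lipoprotein lipase and was the most abundant of these genes, fell from 216 ± 11.6 FPKM (SD, n = 3) to 150 ± 5.99 FPKM (SD, n = 3), which is -0.55 on the log2 scale (standard error 0.07). It lies in the same cluster as APOE and APOC1 and moved in the opposite direction. APOC2 shares exons with the listed readthrough gene APOC4-APOC2, so its counts are uncertain to that extent.

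Among 12 genes of particle assembly and secretion, 7 rose and 0 fell (adjusted p under 0.05) by edgeR's quasi-likelihood test, against 23.3% and 22.4% of all genes and loci, and at an unadjusted p under 0.05 the counts were also 7 and 0. The median log2 fold change was 0.24. DGAT2, an enzyme of the last step of triglyceride synthesis, was the 1 gene called higher, against 4.43% of all, at 8.05, 9.33 and 9.25 FPKM in Huh7 P and 20.3, 19.4 and 19.1 FPKM in Huh7 LR. P4HB, the small subunit of the complex with MTTP, was the most abundant and went from 319 ± 11.1 FPKM (SD, n = 3) to 399 ± 45.5 FPKM (SD, n = 3), which is 0.30 on the log2 scale (standard error 0.08, edgeR quasi-likelihood test, Benjamini-Hochberg adjusted p = 0.0132). The partner subunits MTTP and P4HB thus gave log2 fold changes of opposite sign, and a direct test of that difference was not made.

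Of 14 genes that remodel particles, 10 were tested, 4 were higher and 3 lower, against 23.3% and 22.4% of all genes and loci, with a median log2 fold change of 0.33. ANGPTL4, an inhibitor of lipoprotein lipase, had 1.28, 1.1996 and 1.11 FPKM in Huh7 P and 5.27, 5.40 and 4.08 FPKM in Huh7 LR, without overlap and with a log2 fold change of 1.98. PON1, an enzyme carried on high-density lipoprotein, was called higher at 1.04 ± 0.0402 FPKM (SD, n = 3) in Huh7 P and 2.27 ± 0.229 FPKM (SD, n = 3) in Huh7 LR, close to the 2-fold threshold, and its adjusted p rose to the threshold of 0.001 or above it without Huh7 P replicate 1 or 2 or Huh7 LR replicate 3, at log2 fold changes of 1.08, 1.07 and 1.05 against 1.09 with all libraries. PON1 was not called by limma without a filter or on log2(FPKM + 1) either. PLTP, which transfers phospholipid onto high-density lipoprotein, was called lower, at 28.7 ± 1.65 FPKM (SD, n = 3) in Huh7 P and 11.6 ± 2.93 FPKM (SD, n = 3) in Huh7 LR. Its call was lost with limma without a filter, where the log2 fold change was -1.32. PON2, the most abundant of this list, was lower by a log2 fold change of -0.26 and no longer passed the test without Huh7 P replicate 2 or 3 or Huh7 LR replicate 3, where the edgeR quasi-likelihood test gave a Benjamini-Hochberg adjusted p of 0.054, 0.0735 and 0.0578 at log2 fold changes of -0.27, -0.21 and -0.26.

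Receptors for particles and their partners counted 14, all tested, of which 9 were higher and 1 lower, against 23.3% and 22.4% of all, with a median log2 fold change of 0.46. CUBN, cubilin, which binds apolipoprotein A-I, was low in Huh7 P with 52, 16 and 42 counts and reached 819, 1520 and 1392 counts in Huh7 LR. The log2 fold change was 5.05 by counts (standard error 0.31), and it was 1.25 on the log2(FPKM + 1) scale, which understates the change of low genes. LRP2, megalin, with which cubilin acts, was called higher too, from 17.1 ± 1.43 FPKM (SD, n = 3) to 42.6 ± 5.28 FPKM (SD, n = 3). SCARB1, the receptor for high-density lipoprotein and the most abundant of the list, rose from 65.4 ± 2.65 FPKM (SD, n = 3) to 100.6 ± 11.3 FPKM (SD, n = 3). Of 4 efflux pumps 2 were tested. ABCA1, which passes cholesterol to apolipoprotein A-I, had 18.1 ± 1.73 FPKM (SD, n = 3) in Huh7 P and 18.6 ± 2.03 FPKM (SD, n = 3) in Huh7 LR, and did not pass the test. ABCG1 was called higher at 0.0794 ± 0.0275 FPKM (SD, n = 3) and 0.621 ± 0.337 FPKM (SD, n = 3), or 2.79 on the log2 scale. With Huh7 P replicate 1, 2 or 3 left out this was 3.03, 2.84 and 2.55 and the adjusted p lay above 0.001. Limma on log2(FPKM + 0.1) without a filter did not call ABCG1 either, and there the log2 fold change was smaller, at 1.92.

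Of 26 transcription factors with known roles at apolipoprotein genes, 8 were higher and 4 lower, against 23.3% and 22.4% of all genes and loci, with a median log2 fold change of 0.12. With edgeR's quasi-likelihood test 0 were called in either direction, at an unadjusted p under 0.05 the counts were 10 higher and 5 lower, and DESeq2 called 1 higher and 0 lower and limma 0 in either direction. The 10 at an unadjusted p under 0.05 include PPARGC1A, chosen for mention after its values were seen. Its counts by library were 8, 8, 15 (Huh7 P) against 19, 21, 25 (Huh7 LR). PPARGC1A passed the minimum-count filter only through Huh7 LR. Its rise was thus close to fixed by the filter, although it enters the 10 and the median. CEBPA, the most abundant per length, had 108, 109 and 106 FPKM in Huh7 P and 156, 172 and 165 FPKM in Huh7 LR, and rose by 0.58 on the log2 scale (standard error 0.07). RORA and FOXO1, chosen for mention after their values were seen, rose more, by 1.38 and 0.98 on the log2 scale, from low levels of 0.192 and 0.970 FPKM in Huh7 P. The 4 that were lower, also named after their values were seen, were PROX1, NR2F1, FOXA3 and CREB3L3. Their log2 fold changes were -0.33, -0.30, -0.20 and -0.19.

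**Figure D5:**
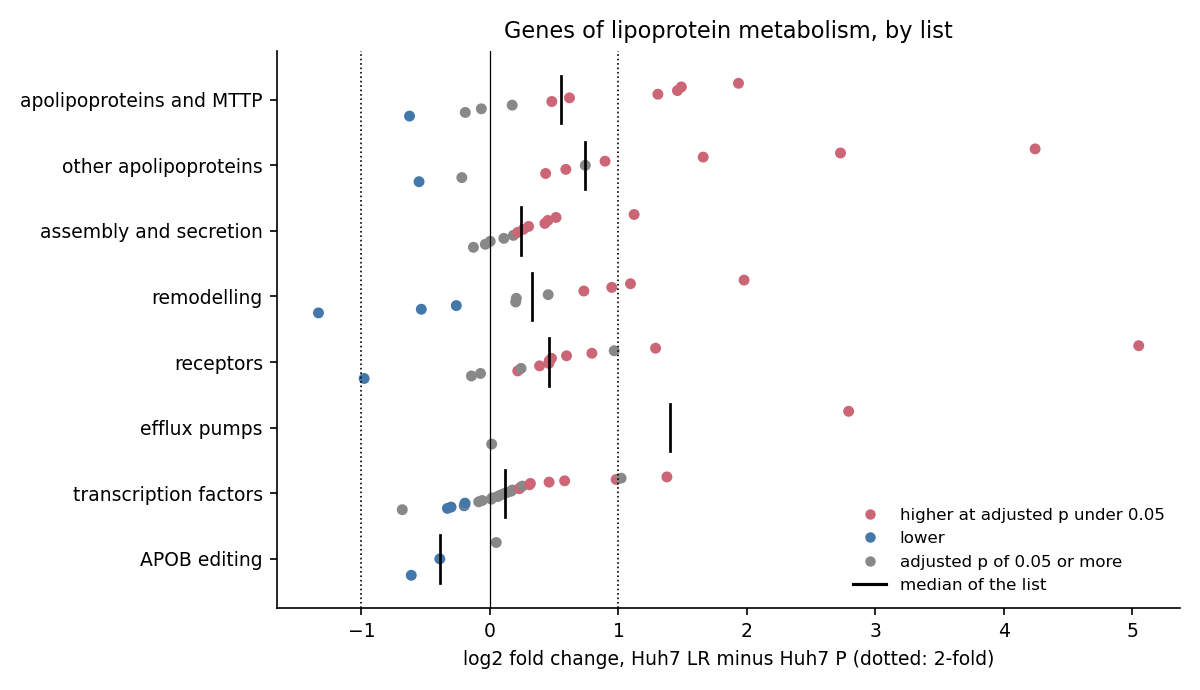
Log2 fold change, Huh7 LR minus Huh7 P, of every tested gene in each list of lipoprotein metabolism, coloured by whether it was higher, lower or had an adjusted p of 0.05 or more; black bars are the medians of the lists and dotted lines mark 2-fold. The medians run from -0.39 for APOB editing to 1.40 for the efflux pumps, of which 2 genes were tested.

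The profiles over the 6 libraries that were nearest to those of the 3 genes with the largest changes were sought among 12292 other genes with a symbol and a mean of at least 1 CPM. Likeness was the root mean square distance of centred log2 CPM, after adding 0.5 CPM to every value, which shrinks the differences of low genes. A near gene may therefore have a larger log2 fold change by counts, as FAM171B with 2.52 has beside APOC3. FAM171B, ZNF862 and AGPAT4 were nearest to APOC3, at distances of 0.05, 0.09 and 0.09. ANO1, PIGR and RUNDC3B were nearest to APOA2, at 0.07, 0.07 and 0.09, and these share its highest value in replicate 1 of Huh7 LR. PLAU, P2RY2 and AKAP12 were nearest to APOH, at 0.07, 0.07 and 0.10. All 9 were low, between 0.0854 and 1.22 FPKM in Huh7 P on average, and none belongs to the lists above.

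Markers of other cell types that make or take up apolipoproteins were read beside these results. Of 6 enterocyte markers 3 were tested and all 3 were higher, against 23.3% of all genes and loci, and SI, sucrase-isomaltase, was called higher. The sum of the 6 went from 154, 148 and 157 CPM in Huh7 P to 238, 282 and 282 CPM in Huh7 LR, with CDX2 the most abundant per length. GUCA2A was at 0 in every library. CDX1 and FABP2, chosen for mention after their values were seen, were near 0 and not tested. Counts of CDX1 were 0, 3, 0 (Huh7 P) against 0, 0, 0 (Huh7 LR), and those of FABP2 were 0, 5, 9 against 0, 2, 0. Of 10 monocyte and macrophage markers 4 were at 0 in every library, namely TYROBP, HLA-DRA, C1QA and C1QB, and the list summed to 133, 140 and 130 CPM in Huh7 P and 63.6, 57.6 and 56.7 CPM in Huh7 LR, with LYZ the most abundant by FPKM in Huh7 P and CD68 in Huh7 LR. The lower sum came from LYZ and CD68, which fell, while AIF1 rose and the median log2 fold change of the 5 genes tested was 0.44. The 7 markers of fibroblasts and stellate cells summed to between 7.73 and 9.10 CPM in Huh7 P and between 7.45 and 11.2 CPM in Huh7 LR, with PDGFRA the most abundant by FPKM in Huh7 P, COL1A1 in Huh7 LR, and DCN at 0. These sums hide opposite changes, since COL1A1 was called higher and PDGFRA lower, although limma called neither. The 4 endothelial markers summed to between 38.8 and 47.5 CPM in Huh7 P and between 65.0 and 71.2 CPM in Huh7 LR. PECAM1 was the most abundant, CDH5 and KDR were at 0, and both endothelial markers tested were higher, against 23.3% of all genes and loci. The other tested marker, VWF, was chosen for mention after its values were seen. By library its counts were 0, 0, 8 (Huh7 P) against 19, 26, 21 (Huh7 LR). VWF passed the minimum-count filter only through Huh7 LR, so it could hardly be tested without being higher. The comparison with 23.3% therefore rests on PECAM1 alone. The 13 mitochondrial protein-coding genes took 5.09% ± 0.358 (SD, n = 3) of counts in Huh7 P and 5.14% ± 0.581 (SD, n = 3) in Huh7 LR. How the hepatocyte, enterocyte and endothelial markers relate to the higher apolipoprotein levels was not tested.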

How the data were processed

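Poly(A) RNA of 3 Huh7 P and 3 Huh7 LR samples was sequenced. The authors deposited a table with the read count of each gene, without normalization, and an FPKM value that they had scaled for transcript length and library size. The submitters' processing notes name TopHat2, Cufflinks, DESeq and the build mm10 without their roles, while the identifiers are those of human genes. The extraction label names an insect. The counting program and strand setting are not given in the sources used here. All 19974 annotated identifiers are in GENCODE release 29, whose GRCh38 coordinates were used, and 34 lines of annotation text without gene counts were left out. Loci without an annotated gene took between 2.86% and 3.35% of the counts.

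The counts went through edgeR 4.0.16 in R 4.3.3 (TMM factors between 0.977 and 1.03, filterByExpr with a minimum count of 10 and a minimum total of 15, quasi-likelihood test, Benjamini-Hochberg adjustment over 17531 genes and loci). All 10 genes passed the filter. A standard error is the log2 fold change over the square root of F. CPM were scaled by TMM. Ratios were compared with SciPy 1.17.1. Alternatives were other scalings, DESeq2 1.42.0, limma 3.58.1 on log2(FPKM + 0.1) and log2(FPKM + 1) after a filter of 0.5 FPKM in 3 libraries and without it, other filters and thresholds, a replicate block, summed overlapping genes and each library left out. Figures were drawn with matplotlib 3.10.9.

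The 10 genes and all other lists were chosen with earlier results of these data known. Genes named are the 10; from each lipoprotein list those called (at most 4 a direction) and the most abundant; of the markers, the most abundant and those at 0, with SI, AIF1 and COL1A1 added after their values were seen; called neighbours within 250 kb; and the 3 genes nearest to each of the 3 with the largest changes. Others are said to be chosen after their values were seen.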

Additional observations from a re-analysis of the deposited data

How the results depend on the processing

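The 10 genes were refitted under 17 alternatives, and 166 of 170 log2 fold changes neither changed sign nor crossed 0.05 in adjusted p. The ranges, without the summing of overlapping genes, were 1.80 to 2.04 for APOC3, 1.24 to 1.66 for APOA2, 1.35 to 1.58 for APOH, 1.29 to 1.35 for APOE, 0.59 to 0.66 for APOC1, 0.45 to 0.52 for APOA1 and -0.71 to -0.49 for APOA4. APOC3, APOE and APOH were called in all of these, and APOA2 in all but limma-trend on log2(FPKM + 0.1) without a filter (adjusted p = 0.00229, with a range over the alternatives from 8.71e-09). Of the 10, 1 was lower at an adjusted p under 0.05, and 2 with DESeq2; with each library left out the number was 1 to 2, MTTP being the other gene. APOM reversed to 0.04 when its counts were summed with those of BAG6, which has far more counts. ABCA1, at 0.01, reversed to -0.06 without Huh7 P replicate 3 and to -0.07 without Huh7 LR replicate 3, in a range from -0.07 to 0.10 with each library left out.

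Of all genes and loci, 776 were called higher and 312 lower. The counts were 268 and 84 with limma-trend on log2(FPKM + 1), 353 and 120 on log2(FPKM + 0.1) without a filter, and 1356 and 969 at an adjusted p under 0.001 and more than 1.5-fold. With each library left out, 551 to 734 were called higher and 224 to 341 lower. The larger numbers at 1.5-fold follow from the lower threshold, and the cause of the other moves was not tested. No scaling moved the median of all genes by more than 0.042 on the log2 scale. The replicate block gave 783 higher and 316 lower, 4 of the 10 genes called higher and 0 lower. Deviations of libraries with the same number correlated at 0.057, 0.067 and 0.025 across genes, under the 0.1 taken as pairing, although each library correlated best with its own number. At these depths the lowest of the 10 genes, APOA4, still had at least 367 counts in every library.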

Other observations

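HNF4A, a nuclear receptor that acts at many apolipoprotein promoters, was chosen for mention after its values were seen, because its measures differ between scales. In CPM it stood at 332, 341 and 303 in Huh7 P and at 274, 332 and 329 in Huh7 LR, with overlapping lines and a log2 fold change of -0.06. In the authors' FPKM it stood at 62.5, 66.3 and 55.6 in Huh7 P and at 51.0, 102 and 96.4 in Huh7 LR, so that Huh7 LR replicates 2 and 3 lay above every Huh7 P library. Among the receptors and lipases outside the rule for named genes and chosen after their values were seen, LRP8, a receptor for apolipoprotein E, had a log2 fold change of -0.98, and LIPC, hepatic lipase, of 0.95.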
